A study of Mus musculus with 24 samples.

Results

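The 10 genes described here are Cplane1, Aebp2, Ly6d, Sulf2, Tcf24, Ccdc47, Arf5, Efna1, Tspan33 and Rnase2a. They were put forward, from earlier results of these data, as genes whose liver signal set mice given streptozotocin apart from untreated mice and stayed apart when quercetin was fed, and the exact rule is not given. The differences between each streptozotocin group and the controls are therefore a description, and so are the calls of the 10 genes made from them, which support nothing. The members are the 29 probe sets that carry 1 of these 10 gene symbols alone, out of 45037 probe sets that are not array controls, and 27 of the 29 passed the filter on low signal, as did 27002 probe sets in all. The 10 genes are 10 of 18193 with a single symbol on the array.

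Liver RNA of 24 male BALB/c mice, 6 weeks old when obtained, was measured on 1 Affymetrix array per mouse, with 6 mice in each of 4 groups. The STZ mice had 1 intraperitoneal dose of 185 mg/kg streptozotocin and then the purified AIN93G diet for 14 days. The STZ + 0.1% and STZ + 0.5% mice had the same dose and that diet with 0.1% or 0.5% quercetin by content. The controls had the diet for 14 days and no injection. All 18 injected mice had been picked for a non-fasting glucose of 230 to 400 mg/dL a week after injection, no vehicle injection is described for the controls, and mice shared cages, with no mouse tied to a cage in the labels. A group difference therefore cannot be told apart from a cage difference, and the p-values take the mice of 1 group to be independent samples.

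Streptozotocin is a glucose-linked alkylating agent that damages DNA and kills the insulin-producing beta cells of the pancreas. It enters cells through the glucose transporter Glut2, which hepatocytes also carry. Quercetin is a flavonol of onions and other plants. The 10 genes do not form a pathway. Cplane1 belongs to a complex that recruits transport proteins to the base of the primary cilium, Aebp2 and Tcf24 act in the nucleus, and Ly6d, Efna1 and Tspan33 are surface proteins. Sulf2 is an extracellular enzyme, Ccdc47 and Arf5 serve the endoplasmic reticulum and vesicle traffic, and Rnase2a is a secreted ribonuclease.

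The RefSeq promoter table of build GRCm38.p6 held 12 start sites of 8 of the genes. The 250 bases before the start are shown for the gene with the widest separation of signal, Cplane1, and for 3 genes that were lower after streptozotocin. Capitals mark the GC box (GGGCGG) and the CCAAT box (CCAAT) on either strand, and no base lay in both motifs. Matches of the same motif that overlap run together. The windows are Cplane1 at chr15:8168856-8169105, plus strand, Arf5 at chr6:28423354-28423603, plus strand, Tspan33 at chr6:29693964-29694213, plus strand, and Rnase2a at chr14:51256113-51256362, minus strand, each written 5′ to 3′ on its own gene's strand.
Cplane1: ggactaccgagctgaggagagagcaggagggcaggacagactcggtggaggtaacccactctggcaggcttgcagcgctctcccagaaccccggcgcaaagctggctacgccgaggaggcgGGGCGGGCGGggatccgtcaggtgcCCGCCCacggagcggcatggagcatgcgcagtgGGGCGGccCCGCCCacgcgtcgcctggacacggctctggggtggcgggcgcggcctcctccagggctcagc
Arf5: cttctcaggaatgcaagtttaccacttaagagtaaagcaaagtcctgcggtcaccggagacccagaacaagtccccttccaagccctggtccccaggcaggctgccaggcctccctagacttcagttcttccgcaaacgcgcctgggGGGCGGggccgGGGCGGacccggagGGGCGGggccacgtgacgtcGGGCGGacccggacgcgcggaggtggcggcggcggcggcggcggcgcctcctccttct
Tspan33: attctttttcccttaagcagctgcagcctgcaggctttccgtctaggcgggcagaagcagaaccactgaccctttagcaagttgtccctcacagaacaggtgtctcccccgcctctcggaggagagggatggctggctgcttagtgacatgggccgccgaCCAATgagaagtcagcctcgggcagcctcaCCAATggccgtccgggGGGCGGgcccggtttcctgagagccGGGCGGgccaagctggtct
Rnase2a: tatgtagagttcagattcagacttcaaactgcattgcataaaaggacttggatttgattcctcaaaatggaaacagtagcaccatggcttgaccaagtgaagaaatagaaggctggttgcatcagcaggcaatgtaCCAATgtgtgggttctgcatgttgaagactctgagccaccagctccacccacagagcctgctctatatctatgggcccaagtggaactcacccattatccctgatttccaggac

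The Cplane1 window held 5 GC boxes and no CCAAT box, and 72.8% of its bases were G or C. The Arf5 window held 4 GC boxes. The Tspan33 window held 2 GC boxes and 2 CCAAT boxes, and the Rnase2a window held 1 CCAAT box and no GC box. Over all 32841 promoter windows of this length, 32.7% held a GC box and 33.9% a CCAAT box, and the median G and C content was 52.4%. An E-box (CANNTG), the motif class bound by basic helix-loop-helix factors such as Tcf24, occurred in the windows of Cplane1, Arf5, Tspan33 and Rnase2a and in 66.2% of all windows. The p53 half-site, searched by its degenerate consensus, occurred in the Arf5 window alone among the 12 and in 7.13% of all windows. A match is a run of letters and not a shown binding site.

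The deposited intensities were quantile normalised across the 24 arrays, and log2 differences are of intensity plus 16, which understates the change of dim genes. A probe set was called at an adjusted p under 0.05 from limma. Deposited array means ran from 61.0 to 102.0, and arrays correlated at 0.963 to 0.987. The 5 hepatocyte markers measured (Alb, Ttr, Apoa1, Tat and Cyp2e1) summed to between 29681 and 32246 in every group, and none was called in any group against control. The signal of the 3′ end of Gapdh relative to its 5′ end, a measure of RNA or labelling quality, moved with the groups. This log2 difference averaged -0.34 ± 0.10 in STZ mice, -0.32 ± 0.15 in STZ + 0.1% mice, -0.21 ± 0.17 in STZ + 0.5% mice and -0.04 ± 0.17 in controls (SD, n = 6 each). Over the whole table, 690 probe sets (2.56%) were called in STZ minus control, 1047 (3.88%) in STZ + 0.1% minus control and 8 (0.0296%) in STZ + 0.5% minus control.

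The 0.5% group was not uniform. Mice 5 and 6 of that group lay at or near the controls for several of the genes, whereas mice 1 to 4 lay with the other injected mice. Of the 690 probe sets called in STZ minus control, 67.0% in mouse 5 and 63.3% in mouse 6 lay inside the range of the 6 controls, compared with 14.2% to 23.5% in mice 1 to 4 of the same group. The share was 3.77% to 10.9% in STZ mice, whose values made the calls, and 11.6% to 20.4% in STZ + 0.1% mice. Their p53 targets, given below, also lay with the controls. These 2 mice thus differed from mice 1 to 4 of their group on these measures. Neither the reason nor whether the label is right was tested. The name given to the genes, markers that persist under quercetin, goes against the data of these 2 mice for part of the list. It also goes against Ccdc47, which was not called in STZ minus control, and several genes have further probe sets that overlapped the controls. The differences of the 0.5% group from control are given with and without these 2 mice. The 2 were singled out for lying near the controls, so wider differences and more calls without them largely follow from that choice. Nothing is read from that gain.

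**Figure D1:**
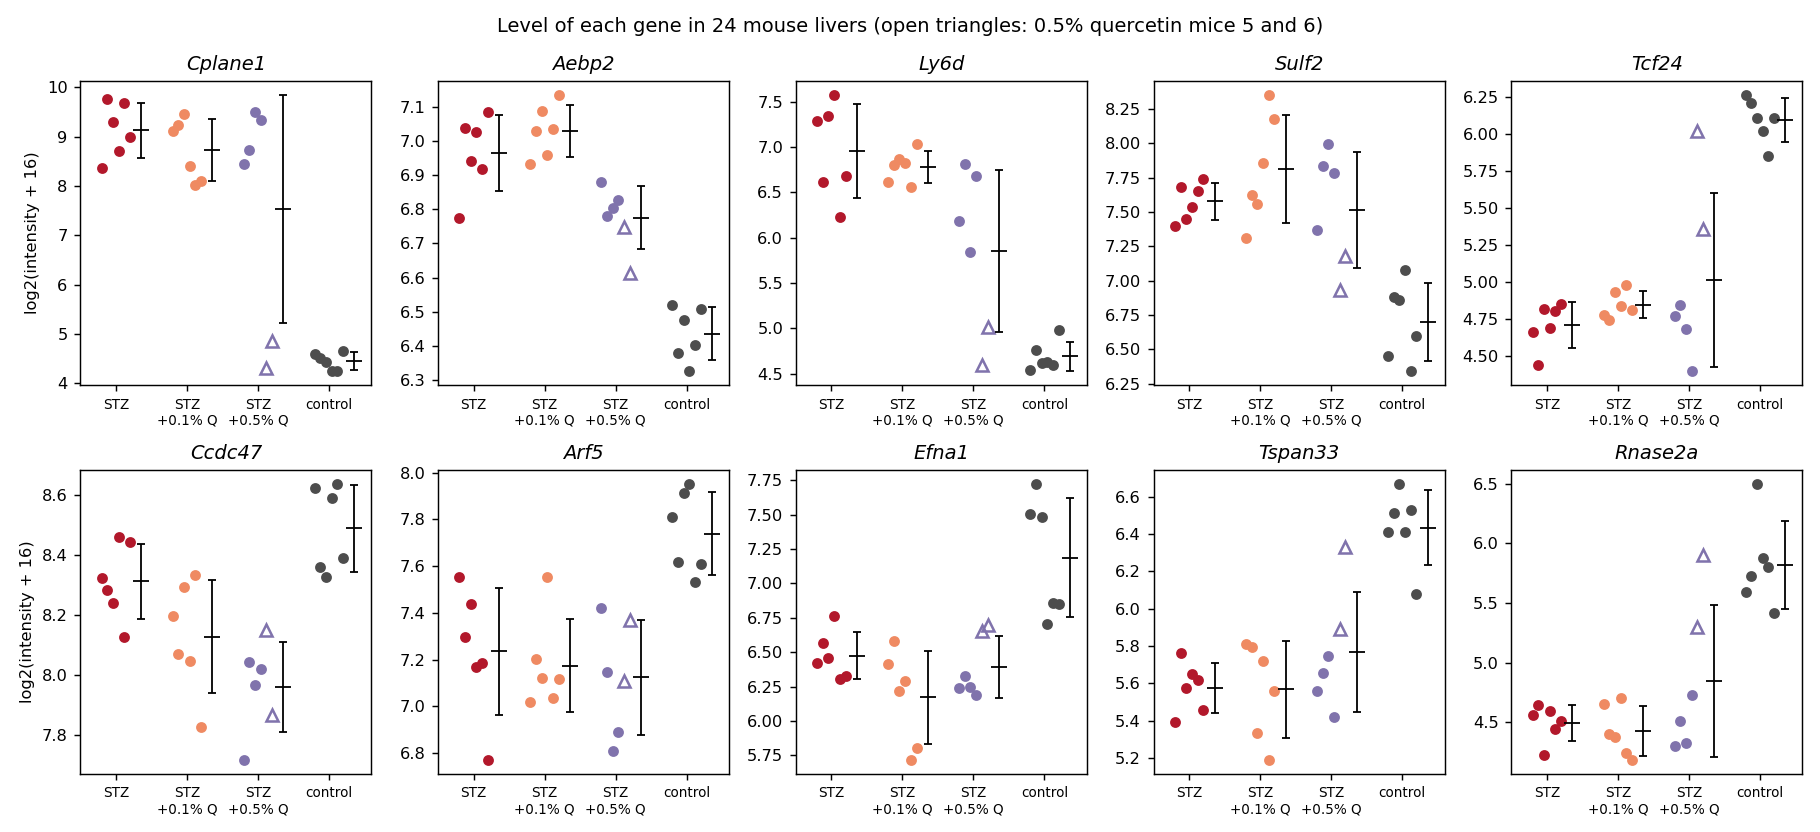
Level of the most intense probe set of each of the 10 genes in 24 livers, as log2 of quantile-normalised intensity plus 16, with 1 point per mouse and a black bar for the group mean and SD (n = 6). Open triangles are STZ + 0.5% mice 5 and 6, which sit at 3.97 and 13.1 intensity units for Cplane1, beside controls at 2.98 to 9.37.

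Cplane1, a subunit of the ciliogenesis and planar cell polarity effector complex, had the widest separation. Its most intense probe set, 1443422_at, measured 311, 552 and 852 (lowest, median and highest) in STZ mice, 244, 429 and 691 in STZ + 0.1% mice and 3.97, 370 and 703 in STZ + 0.5% mice, against 2.98, 6.30 and 9.37 in controls. Every STZ and STZ + 0.1% mouse was above every control. In the 0.5% group, mice 1 to 4 measured 332, 408, 703 and 630, and mice 5 and 6 measured 3.97 and 13.1. Mouse 5 was thus inside the control range and mouse 6 just above it. The log2 difference from control was 4.68 ± 0.61 for STZ, 4.27 ± 0.61 for 0.1% and 3.08 ± 0.61 for 0.5% (SE, n = 6 each), and 4.54 ± 0.27 at 0.5% without mice 5 and 6.

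The 7 probe sets of Cplane1 did not move alike. Beside 1443422_at, the probe sets 1452951_at, 1444220_at and 1458493_a_at were higher in STZ than in control by 2.57 ± 0.37, 1.81 ± 0.27 and 1.31 ± 0.21 on the log2 scale (SE). In all 3, the 6 STZ mice and the 6 STZ + 0.1% mice lay above every control, and 2 of the 6 mice at 0.5%, mice 5 and 6, lay inside the control range. At 0.5% these 3 differed from control by 1.70 ± 0.37, 1.28 ± 0.27 and 0.84 ± 0.21 (SE), and by 2.59 ± 0.16, 1.81 ± 0.21 and 1.26 ± 0.16 without mice 5 and 6. Probe set 1437439_at differed by -0.15 ± 0.11 in STZ minus control and 1441571_at by -0.06 ± 0.09, and 1443691_at was under the filter in this table. Those 3 probe sets had medians of 1.89 to 10.4 in every group, near the floor of the array. Levels of different probe sets cannot be compared, and which transcripts each detects was not tested.

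Of 26 genes of the CPLANE complex, intraflagellar transport and the ciliary base that passed the filter, none but Cplane1 itself was called in STZ minus control, where 1.74% of 13130 genes were called higher and 1.38% lower. In this and the following lists the call of the gene that is one of the 10 follows from how it was chosen, and nothing is read from it. The list's median log2 difference was -0.04, beside -0.02 over all genes. These shares and this median over all genes apply to each of the following lists as well. Its partners Intu, Fuz and Wdpcp, which form the complex with it, differed by -0.08 ± 0.11, -0.15 ± 0.11 and 0.02 ± 0.10 (SE) and did not pass the test.

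Aebp2, a zinc finger subunit of the Polycomb repressive complex PRC2, which methylates histone H3, was higher in every injected mouse with its most intense probe set and not with the others. Probe set 1434080_at measured 93.4, 111 and 120 in STZ mice, 106, 115 and 124 in STZ + 0.1% mice and 81.8, 94.8 and 102 in STZ + 0.5% mice, against 64.3, 70.8 and 75.9 in controls. No injected mouse overlapped the controls, mice 5 and 6 of the 0.5% group included, although these 2, at 91.5 and 81.8, were the lowest of their group. The log2 difference from control was 0.53, 0.59 and 0.34 for STZ, 0.1% and 0.5% (SE 0.07 each), and 0.39 ± 0.08 at 0.5% without mice 5 and 6.

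Among the other Aebp2 probe sets, 1437743_at was higher by 0.49 ± 0.12 in STZ minus control, 1435070_at by 0.32 ± 0.10 and 1455616_at by 0.18 ± 0.15 (SE), and 1421021_at was under the filter. The first of these was called and the other 2 were not. At 0.5% the same 3 differed from control by 0.37 ± 0.12, 0.26 ± 0.10 and -0.03 ± 0.15 (SE), and by 0.55 ± 0.12, 0.32 ± 0.10 and 0.04 ± 0.15 without mice 5 and 6. For 1437743_at, 1 mouse at 0.1% and 2 at 0.5% lay inside the control range. For 1435070_at, 1 mouse at 0.5% lay inside it and 1 below it, and for 1455616_at each quercetin group had 2 mice inside it and 2 below it. Of 12 PRC2 genes tested, Aebp2 itself was called higher and Rbbp4, a histone-binding subunit, lower (log2 difference -0.45 ± 0.09, SE, with an adjusted p of 0.00524 from limma), and the catalytic Ezh2 differed by -0.05 ± 0.11. The median of the list was 0.01.

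Ly6d, a lipid-anchored surface protein of the Ly6 family that marks early B-lineage progenitors in mouse bone marrow, had 1 probe set, 1416930_at. It measured 59.2, 113 and 175 in STZ mice, 78.2, 96.2 and 115 in STZ + 0.1% mice and 8.10, 49.1 and 96.2 in STZ + 0.5% mice, against 7.21, 8.71 and 15.7 in controls. All STZ and STZ + 0.1% mice lay above the controls. In the 0.5% group mice 1 to 4 measured 56.8, 96.2, 41.4 and 86.2, mouse 5 lay inside the control range at 8.10 and mouse 6 was just above it at 16.3. The log2 difference from control was 2.27, 2.09 and 1.16 (SE 0.27 each) for STZ, 0.1% and 0.5%, and 1.69 ± 0.20 at 0.5% without mice 5 and 6.

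Of 8 Ly6 family genes tested, Ly6d and Ly6e were called higher in STZ minus control, Ly6e by 2.01 ± 0.33 (SE, adjusted p = 0.000940 from limma), and the list's median was 0.07. Markers of B and plasma cells went the other way. Their summed intensity over 5 markers was 42.3 to 95.1 in STZ mice, 49.0 to 87.8 in STZ + 0.1% mice and 60.4 to 241 in STZ + 0.5% mice, against 160 to 314 in controls. Ighm and Jchain were called lower in STZ minus control, by 1.63 ± 0.30 and 0.58 ± 0.13 on the log2 scale (SE), and the medians of Cd79a, Cd79b and Ms4a1 were under 16 in every group. In bulk liver RNA, fewer cells of a type and less RNA per cell cannot be told apart.

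Sulf2, an extracellular sulfatase that removes sulfate groups from heparan sulfate, measured 153, 178 and 198 with probe set 1447602_x_at in STZ mice, 143, 199 and 311 in STZ + 0.1% mice and 106, 177 and 239 in STZ + 0.5% mice, against 65.1, 90.3 and 119 in controls. All injected mice but mouse 5 of the 0.5% group, at 106, were above the controls, and mouse 6 was the next lowest of that group at 129. The log2 difference was 0.88, 1.11 and 0.81 (SE 0.17 each) for STZ, 0.1% and 0.5%, and 1.04 ± 0.17 at 0.5% without those 2 mice. Probe set 1430388_a_at differed by 1.07, 1.16 and 0.81 (SE 0.18 each), the last of them 1.14 ± 0.15 without mice 5 and 6, whereas 1442408_at differed by 0.11, 0.05 and 0.01 (SE 0.08 each), the last 0.03 ± 0.09 without them, and overlapped the controls in all 3 groups.

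The suffix of 1447602_x_at marks a probe set whose probes may also bind unrelated transcripts. Of 18 genes of heparan sulfate synthesis, core proteins and editing, Sulf2 and the core protein gene Sdc1 were called higher in STZ minus control, Sdc1 by 0.62 ± 0.13 (adjusted p = 0.0103 from limma), with none lower and a median of -0.01.

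**Figure D2:**
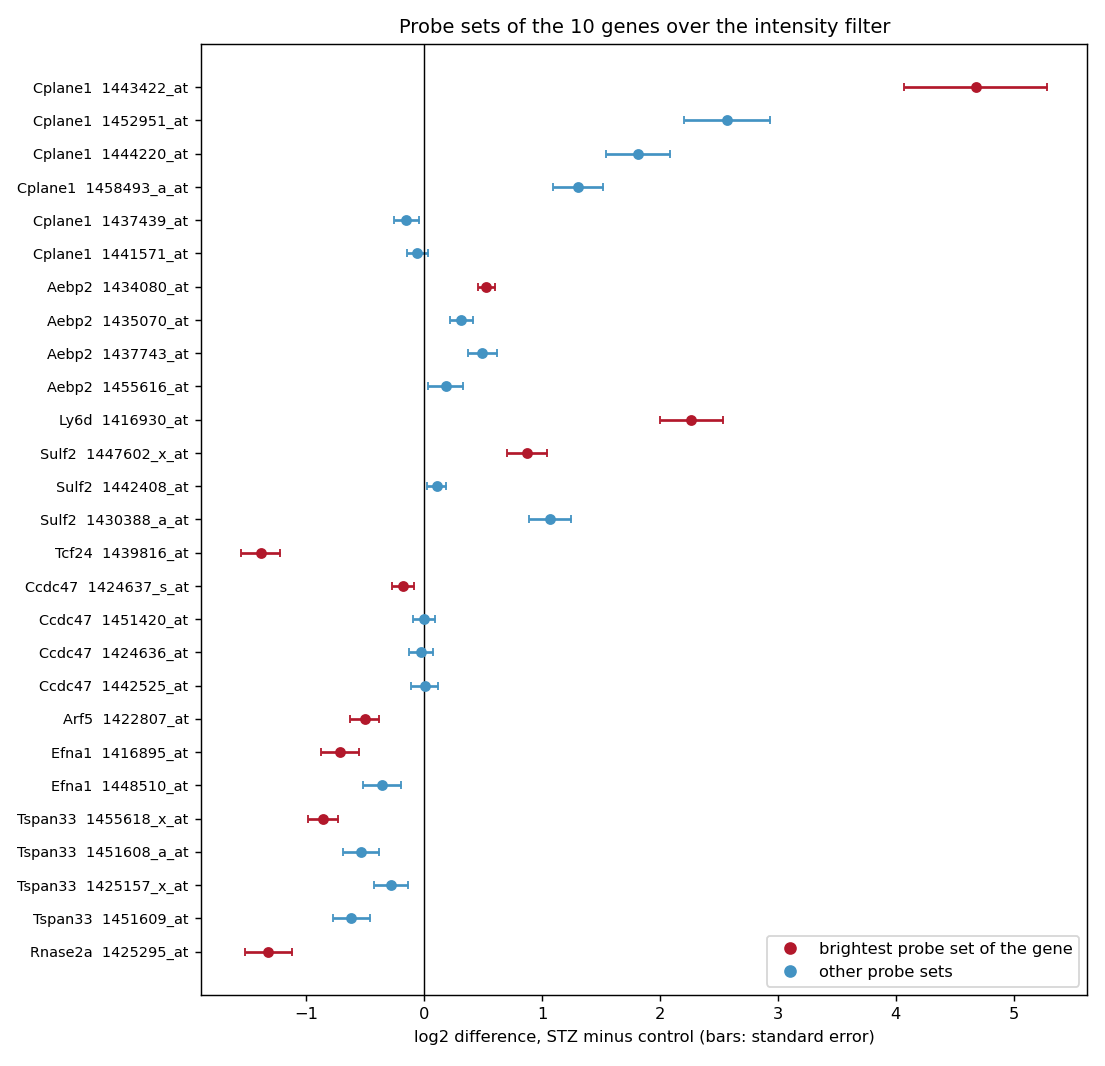
Log2 difference in STZ minus control for the 27 probe sets of the 10 genes that passed the filter, with standard errors, the most intense probe set of each gene in red. Values run from -1.38 for Tcf24 to 4.68 for Cplane1, and Ccdc47 has 3 probe sets within 0.03 of 0.

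Tcf24, a basic helix-loop-helix factor, was lower in nearly all injected mice. Its 1 probe set, 1439816_at, measured 5.63, 10.8 and 12.9 in STZ mice, 10.8, 12.3 and 15.5 in STZ + 0.1% mice and 5.04, 12.0 and 48.9 in STZ + 0.5% mice, against 41.8, 52.9 and 60.8 in controls. The 6 STZ and 6 STZ + 0.1% mice lay below every control and so did mice 1 to 4 of the 0.5% group. Mouse 5 of the 0.5% group was inside the control range at 48.9, and mouse 6 lay between the groups at 25.0. The log2 difference was -1.38, -1.25 and -1.08 (SE 0.16 each) for STZ, 0.1% and 0.5%, and -1.42 ± 0.10 at 0.5% without mice 5 and 6. Medians in the injected groups, 10.8 to 12.3, were under the offset of 16, so the size of these differences depends on it. Of 7 related helix-loop-helix genes tested, Tcf24 alone was called in STZ minus control, and the median was -0.08.

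Cplane1 and Tcf24 mirrored each other across mice. The Pearson correlation of their deviations from the group means was -0.82 over 24 arrays and -0.64 without mice 5 and 6 of the 0.5% group, on shared arrays and as a description. Cplane1 and Ly6d gave 0.63 and 0.23 on the same measures, so that relation was mostly lost without the 2 mice.

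**Figure D3:**
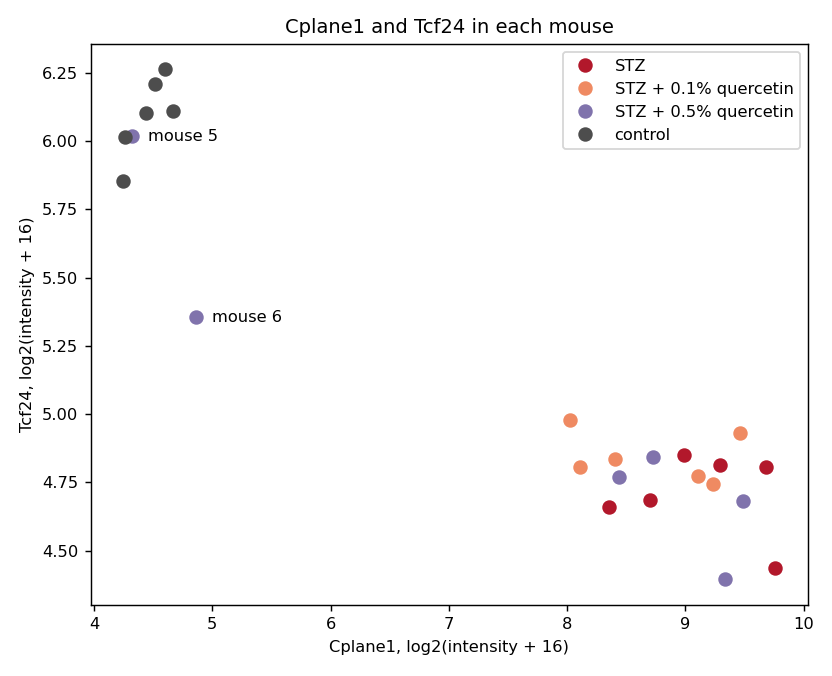
Cplane1 against Tcf24 in each of 24 mice, both as log2 of quantile-normalised intensity plus 16. STZ + 0.5% mouse 5 lies among the controls and mouse 6 beside them, and the other 16 injected mice form a separate cloud of high Cplane1 and low Tcf24.

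Ccdc47, a membrane protein of the endoplasmic reticulum that helps insert proteins with several membrane spans, showed a graded order of medians. Probe set 1424637_s_at measured 264, 300 and 336 in STZ mice, 211, 265 and 307 in STZ + 0.1% mice and 195, 239 and 268 in STZ + 0.5% mice, against 305, 345 and 382 in controls. The control range held 2 STZ mice, 1 STZ + 0.1% mouse and no STZ + 0.5% mouse. The log2 difference from control was -0.18, -0.36 and -0.53 (SE 0.09 each), and -0.55 ± 0.10 at 0.5% without mice 5 and 6, which measured 268 and 218. The difference of 0.1% minus STZ was -0.18 (95% interval -0.38 to 0.01) and that of 0.5% minus STZ -0.35 (-0.54 to -0.16), with no call.

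The graded order was not shared by the other 3 Ccdc47 probe sets. Probe set 1451420_at differed from control by 0.00 in STZ, 0.01 at 0.1% and 0.17 at 0.5% (SE 0.09 each), 1424636_at by -0.03, -0.14 and -0.06 (SE 0.10 each), and 1442525_at by 0.00, 0.29 and 0.07 (SE 0.12 each). Without mice 5 and 6 their differences at 0.5% were 0.14 ± 0.10, -0.07 ± 0.11 and 0.15 ± 0.12 (SE). All 6 mice at 0.5% lay inside the control range of 1424636_at. The suffix of 1424637_s_at marks a probe set shared by several transcripts. Of 21 genes of the translocon and membrane insertion tested, Ssr4, a subunit of the translocon-associated complex, was the 1 called in STZ minus control, at -0.47 ± 0.10 (SE), with an adjusted p of 0.0124 from limma, and the median was -0.08.

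Arf5, a small GTPase of vesicle traffic at the Golgi, measured 93.3, 135 and 172 with its 1 probe set, 1422807_at, in STZ mice, 114, 123 and 172 in STZ + 0.1% mice and 96.0, 124 and 155 in STZ + 0.5% mice, against 169, 194 and 232 in controls. STZ mouse 1 and STZ + 0.1% mouse 4, both at 172, reached the lowest control, and all 6 mice at 0.5% lay below it, mice 5 and 6 included at 122 and 149. The log2 difference was -0.50, -0.56 and -0.61 (SE 0.12 each) for STZ, 0.1% and 0.5%, and -0.67 ± 0.14 at 0.5% without mice 5 and 6. Of 21 Arf GTPases and coat genes tested, Arf5 was the 1 called in STZ minus control, and the median was 0.00.

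Efna1, a lipid-anchored ephrin that signals to EphA receptors on neighbouring cells, measured 63.2, 70.7 and 92.6 with probe set 1416895_at in STZ mice, 36.6, 60.3 and 79.8 in STZ + 0.1% mice and 57.1, 62.1 and 87.8 in STZ + 0.5% mice, against 88.5, 131 and 196 in controls. One injected mouse, STZ mouse 4 at 92.6, overlapped the controls. The controls formed a high trio, 166, 196 and 163 in mice 1 to 3, and a low trio, 88.5, 99.7 and 99.4 in mice 4 to 6. The labels tie no control to a cage or batch, so whether the trios share one was not tested. The log2 difference was -0.71, -1.02 and -0.80 (SE 0.16 each) for STZ, 0.1% and 0.5%, and -0.94 ± 0.18 at 0.5% without mice 5 and 6, which at 84.5 and 87.8 were the highest of their group.

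The other Efna1 probe set, 1448510_at, differed by -0.36, -0.53 and -0.49 (SE 0.16 each), the last of them -0.59 ± 0.18 without mice 5 and 6. All 6 STZ mice and 4 of 6 mice in each quercetin group lay inside its control range. Of 13 ephrins and Eph receptors tested, Efna1 was the 1 called in STZ minus control, and the median was -0.02.

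Tspan33, a tetraspanin that binds the protease Adam10 and is known from red cell precursors and activated B cells, measured 26.1, 32.4 and 38.3 with probe set 1455618_x_at in STZ mice, 20.5, 33.9 and 40.1 in STZ + 0.1% mice and 26.8, 36.1 and 64.6 in STZ + 0.5% mice, against 51.5, 72.2 and 85.9 in controls. All injected mice lay below the controls except mouse 6 of the 0.5% group at 64.6, and mouse 5 was the next highest of that group at 43.4. The log2 difference was -0.86, -0.87 and -0.67 (SE 0.13 each) for STZ, 0.1% and 0.5%, and -0.84 ± 0.12 at 0.5% without mice 5 and 6. The suffix of 1455618_x_at, and of 1425157_x_at below, marks a probe set whose probes may also bind unrelated transcripts.

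The other 3 Tspan33 probe sets differed by -0.54 ± 0.15 (1451608_a_at), -0.28 ± 0.14 (1425157_x_at) and -0.62 ± 0.16 (1451609_at) in STZ minus control (SE), the last of them called. At 0.1% they differed from control by -0.44 ± 0.15, -0.30 ± 0.14 and -0.70 ± 0.16, and at 0.5% by -0.28 ± 0.15, -0.24 ± 0.14 and -0.67 ± 0.16. Without mice 5 and 6 the values at 0.5% were -0.36 ± 0.17, -0.32 ± 0.16 and -0.62 ± 0.18. The control range of 1451608_a_at held 1 STZ mouse, 3 mice at 0.1% and 4 at 0.5%, that of 1425157_x_at held 3, 4 and 5, and that of 1451609_at held 5, 3 and 3. Of 17 tetraspanins and Adam10 tested, Tspan33 was the 1 called in STZ minus control, and Adam10 differed by 0.26 ± 0.09 without passing the test. Beside the lower B and plasma cell sums given above, 3 erythroid markers summed to 239 to 501 in STZ mice, 194 to 633 in STZ + 0.1% mice and 380 to 670 in STZ + 0.5% mice, against 493 to 717 in controls, with the medians of Hba-a1 and Slc4a1 under 16 in every group. The part of these cells in the Tspan33 difference was not tested.

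Rnase2a, a secreted ribonuclease of the eosinophil-associated group of mouse genes, measured 2.68, 7.20 and 9.03 with its 1 probe set, 1425295_at, in STZ mice, 2.19, 4.96 and 10.1 in STZ + 0.1% mice and 3.69, 8.62 and 43.9 in STZ + 0.5% mice, against 26.6, 38.4 and 74.5 in controls. All STZ and STZ + 0.1% mice were below the lowest control. Mouse 6 of the 0.5% group was inside the control range at 43.9, and mouse 5 was just below it at 23.3. The log2 difference was -1.32, -1.39 and -0.97 (SE 0.20 each) for STZ, 0.1% and 0.5%, and -1.35 ± 0.15 at 0.5% without mice 5 and 6.

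The 6 eosinophil markers measured (Prg2, Epx, Siglecf, Ccr3, Il5ra and Alox15) had medians under 16 in every group and none passed the filter. Their sum was 9.47 to 24.4 in STZ mice, 6.95 to 23.4 in STZ + 0.1% mice and 9.70 to 22.1 in STZ + 0.5% mice, against 5.97 to 20.7 in controls. The defining eosinophil markers were thus near the array floor in the controls too, where Rnase2a was at its highest. The eosinophil-associated ribonuclease genes of the mouse are close in sequence, and whether the probe set also detects relatives was not tested. Of 6 genes of the RNase A family tested, Rnase2a was the 1 called in STZ minus control, and the median was -0.04.

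Counted over the most intense probe set of each gene, 9 of 10 were called in STZ minus control, where 2.56% of probe sets were called, and the exception was Ccdc47. In STZ + 0.1% minus control 10 of 10 were called, where the share was 3.88%. In STZ + 0.5% minus control 2 of 10 were called, Tcf24 and Ccdc47, where the share was 0.0296%. Without mice 5 and 6 of the 0.5% group 10 of 10 were called there, where the share was 2.48% (669 of 27002), and without mouse 5 alone or mouse 6 alone the count was also 10. All mice of the group lay outside the control range for 7 of the 10 genes in STZ, where 3.21% of probe sets did, for 8 in STZ + 0.1%, where 3.11% did, and for 4 in STZ + 0.5% (Aebp2, Ccdc47, Arf5 and Efna1), where 0.607% did. Mice 5 and 6 were left out for lying near the controls, which by itself favours calls. These contrasts also chose the genes and share their 6 controls, so nothing is read from the counts.

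The same count over all mice at 0.5% was sensitive to single arrays, since the adjusted p of the other 8 genes lay between 0.0519 and 0.0732 (limma). It was 0 without control 1, 4 without control 5, 3 in 3 of the other omissions, 2 in 6 and 1 in 11. With the 3′ to 5′ difference of Gapdh as a covariate, the 3 counts were 2 of 10 for STZ (Ly6d and Tcf24), 1 of 10 for 0.1% (Aebp2) and 0 of 10 for 0.5%, and the log2 differences kept their signs, Cplane1 at 3.42 ± 0.67 and Rnase2a at -0.80 ± 0.20 (SE) in STZ minus control. Because this measure moved with the groups, its part in the differences cannot be told apart from that of the treatment. Over the 10 genes, the signs of the 3 differences from control, 4 higher and 6 lower, were the same on the deposited scale, after quantile normalisation and after median scaling.

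Placed against the controls mouse by mouse with 1 probe set per gene, the most intense, the genes split in the 2 unusual mice. Mouse 5 of the 0.5% group had 4 of the 10 genes inside the control range (Cplane1, Ly6d, Sulf2 and Tcf24) and mouse 6 had 2 others (Tspan33 and Rnase2a). In both mice Aebp2, Ccdc47, Arf5 and Efna1 stayed outside it, on the side of the other injected mice. Mice 1 to 4 of the 0.5% group had no gene inside it. Some placements of mice 5 and 6 rested on narrow margins. Mouse 6 was just above the highest control for Cplane1 (13.1 against 9.37), Ly6d (16.3 against 15.7) and Sulf2 (129 against 119). Mouse 5 was just below the lowest control for Rnase2a (23.3 against 26.6), and both were for Efna1 (84.5 and 87.8 against 88.5). The counts therefore do not show that different genes lay near the controls in the 2 mice. Of the other 17 probe sets of the genes, 13 in mouse 5 and 12 in mouse 6 lay inside the control range, compared with 5 to 10 in mice 1 to 4. Both mice were inside it for Efna1 (1448510_at), Aebp2 (1437743_at) and Ccdc47 (1424636_at). Among the STZ mice 3 of 6 had 1 or 2 genes inside (Arf5, Ccdc47 or Efna1), and among the STZ + 0.1% mice 2 of 6 had 1 (Arf5 or Ccdc47).

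**Figure D4:**
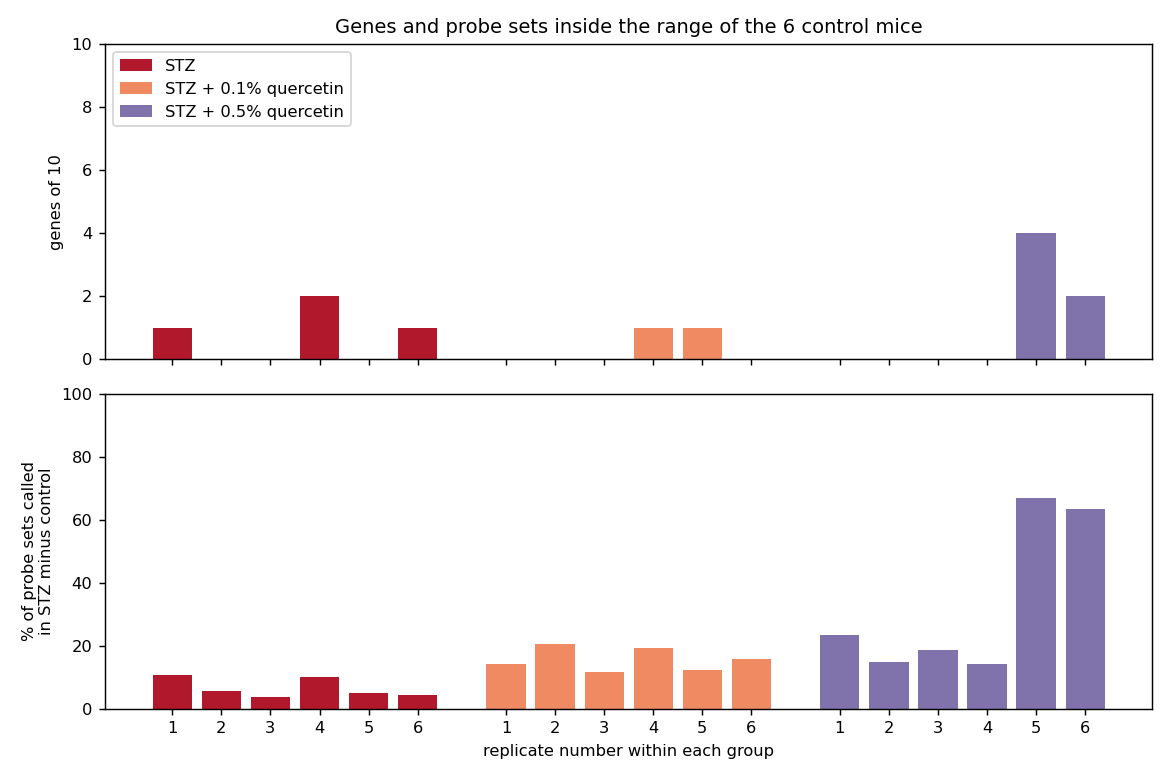
For each of the 18 injected mice, the number of the 10 genes (upper bars, axis to 10) and the percentage of the 690 probe sets called in STZ minus control (lower bars) whose signal lay inside the range of the 6 controls. STZ + 0.5% mice 5 and 6 reach 67.0% and 63.3% in the lower bars, and no other mouse exceeds 23.5%.

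A list of targets of p53, the damage-activated transcription factor, was measured on the same arrays. The list as fixed held none of the 10 genes, and whether any of the 10 is itself a p53 target was not tested. Cdkn1a, the cell cycle inhibitor, measured 323, 382 and 465 in STZ mice, 167, 255 and 342 in STZ + 0.1% mice and 10.4, 238 and 608 in STZ + 0.5% mice, against 12.9, 32.4 and 50.002 in controls. Mice 5 and 6 of the 0.5% group were at 16.2 and 10.4, inside or below the controls, and mice 1 to 4 were at 192 to 608. Phlda3 was at 14.0 and 12.2 in mice 5 and 6, inside its control range of 7.93 to 14.5, and Trp53inp1 was at 193 and 194, inside its control range of 174 to 231. In STZ minus control 15 of 24 p53 targets were called higher and 1, Perp, lower, beside 1.74% higher and 1.38% lower over all genes. Their median was 0.64, beside -0.02 over all genes.

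The macrophage and Kupffer cell sum over 13 markers was 1933 to 2470 in STZ mice, 2023 to 2373 in STZ + 0.1% mice and 1392 to 2244 in STZ + 0.5% mice, against 1385 to 1786 in controls, and mice 5 and 6 were at 1423 and 1392. Their B and plasma cell sums were 222 and 241, within the control range. Their erythroid sums, 507 and 670, and neutrophil sums, 62.4 and 82.3, were also within the control ranges, 493 to 717 and 61.1 to 105. The neutrophil range of STZ mice, 47.2 to 129, spanned that of the controls, and 5 of the 7 neutrophil markers had medians under 16 in every group. Some other sums lay outside the control range in mouse 5, mouse 6 or both. The endothelial sum over 6 markers was 493 and 500.3 in mice 5 and 6, against 501 to 552 in controls, and the stellate and fibroblast sum over 7 markers was 983 and 804, against 810 to 960.3. The cholangiocyte sum over 5 markers was 9.79 and 29.6, against 21.9 to 44.2, so mouse 6 was inside. All 5 of these markers had medians under 16 in every group, near the array floor, so little can be read from their sum. The exocrine pancreas sum over 3 markers was nearly all Cela1, since the medians of Cela2a and Cpa1 were under 16 in every group. This sum was 464 and 533 in mice 5 and 6, against 471 to 635 in controls. It was 174 to 265 in STZ mice and 152 to 284 in STZ + 0.1% mice, so both mice lay nearer the controls.

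The contrasts of each dose with STZ are part of the description, since the genes were picked for staying apart from control. At 0.1% the log2 difference from STZ lay between -0.41 (Cplane1, 95% interval -1.65 to 0.84) and 0.24 (Sulf2, -0.11 to 0.59). At 0.5% it was -1.60 for Cplane1 (-2.85 to -0.36), -1.10 for Ly6d (-1.65 to -0.56) and -0.35 for Ccdc47 (-0.54 to -0.16), and between -0.19 and 0.35 for the other 7 genes. Without mice 5 and 6 the difference turned sign for Sulf2 (0.17), Tcf24 (-0.04) and Rnase2a (-0.03), against -0.06, 0.30 and 0.35 with them, and it was -0.13 for Cplane1 (-0.69 to 0.43), -0.58 for Ly6d (-0.99 to -0.16) and -0.38 for Ccdc47 (-0.59 to -0.16). No probe set of the table was called in either contrast (0%), and 1336 at 0.1% and 1917 at 0.5% had an unadjusted p under 0.05.

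**Figure D5:**
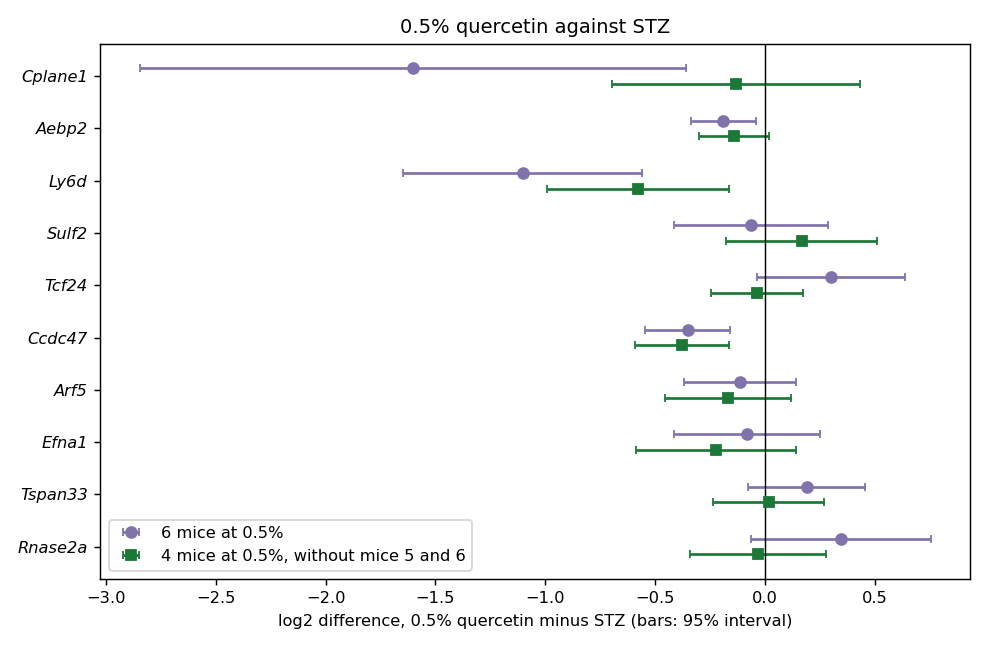
Log2 difference in STZ + 0.5% minus STZ for the 10 genes with 95% intervals, over 6 mice at 0.5% (circles) and over 4 mice without mice 5 and 6 (squares). Cplane1 is at -1.60 over 6 mice and -0.13 over 4, whereas Ccdc47 is at -0.35 and -0.38.

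The contrast of the 2 doses was tested over the whole table, although both groups' differences from control may have entered the choice of the genes. No probe set passed (0%, limma, with 2112 at an unadjusted p under 0.05). Among the 10 genes the lowest adjusted p was 0.402, for Aebp2 and Ly6d. Aebp2 was at 81.8 to 102 at 0.5% and 106 to 124 at 0.1%, so that all 6 mice at 0.5% lay below all 6 at 0.1%, as 2 groups that do not overlap did in 0.211% of probe sets, with a log2 difference of -0.25 (95% interval -0.40 to -0.11), and of -0.21 (-0.37 to -0.05) without mice 5 and 6. The other 3 Aebp2 probe sets differed by -0.07, -0.06 and -0.09 and overlapped. Ly6d differed by -0.93 (-1.47 to -0.38), and by -0.40 (-0.82 to 0.01) without them. Cplane1 differed by -1.19 (-2.44 to 0.05), and by 0.27 (-0.29 to 0.84) without them. Intervals of Tcf24, Ccdc47, Arf5, Efna1, Tspan33 and Sulf2 all included 0, and that of Rnase2a, 0.01 to 0.83, did not, at an adjusted p of 0.631 (limma). Without mice 5 and 6 the Rnase2a difference was 0.04 (-0.27 to 0.35), in place of 0.42.

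The slope of log2 level on percent quercetin over the 18 injected mice was called for no probe set (0%, limma, 2111 at an unadjusted p under 0.05). Per 1% of the diet it was -3.14 ± 1.24 for Cplane1, -2.24 ± 0.54 for Ly6d, -0.62 ± 0.18 for Ccdc47 and 0.79 ± 0.37 for Rnase2a (SE), at adjusted p of 0.577, 0.343, 0.488 and 0.627. Without mice 5 and 6 of the 0.5% group the same 4 slopes were -0.04 ± 0.60, -1.12 ± 0.41, -0.69 ± 0.21 and -0.02 ± 0.23, again with no call, so those of Cplane1 and Rnase2a rested on these 2 mice. A slope that misses the threshold does not show that the doses act alike.

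The genes most like each member were named by the Pearson correlation of deviations from the group means over 24 arrays, as a description of shared arrays. Cplane1 was closest to Mbl2, a complement-activating lectin (0.92), and Ly6e (0.90), and its Spearman correlations with them were 0.68 and 0.54. Ly6d was closest to Tmem43 (0.80) and also to Ly6e (0.76), Sulf2 to N4bp2l1 (0.79) and Enc1 (0.78), and Aebp2 to Smim4 (0.76) and D830012I24Rik (0.73). Among the lower genes Tcf24 was closest to Fbxo27 (0.79) and Nrn1 (0.76), Ccdc47 to Fscn1 (0.72) and Oprk1 (0.71), and Arf5 to Mettl22 (0.76) and Irak2 (0.75). Efna1 was closest to Wrnip1 (0.82) and Psen2 (0.81), Tspan33 to Gpank1 (0.84) and the deiodinase Dio1 (0.77), and Rnase2a to C1qbp (0.85) and Vdac1 (0.84), both mitochondrial proteins. Over these 20 pairs the Spearman correlation was 0.48 (Ly6d and Tmem43) to 0.87 (Rnase2a and Vdac1), and the Pearson correlation without mice 5 and 6 of the 0.5% group was 0.52 (Ly6d and Ly6e) to 0.82 (Efna1 and Psen2). Without them Cplane1 gave 0.77 with Mbl2 and 0.71 with Ly6e, and Tcf24 gave 0.56 with Fbxo27. Among the members themselves Tspan33 and Rnase2a gave 0.73, and 0.58 without mice 5 and 6 of the 0.5% group.

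The 10 genes lie on 7 chromosomes, with Aebp2, Arf5 and Tspan33 on chromosome 6 and Cplane1 and Ly6d on chromosome 15. Arf5 and Tspan33 have 20 protein-coding genes between them in the RefSeq gene order of GRCm38.p6, of which 13 were tested and 2 called in STZ minus control. These were Snd1, lower by 0.42 on the log2 scale (adjusted p = 0.0262 from limma), and the interferon regulatory factor Irf5, lower by 0.57 (adjusted p = 0.00789 from limma). They were also the 2 called among 30 tested neighbours of the 10 genes, taking 3 genes on each side. Over all 13130 genes 1.74% were called higher and 1.38% lower. The counts here are small, and nothing is read from them.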

How the data were processed

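The authors deposited 1 linear intensity for each of 45101 probe sets on each array, of which 64 are array controls. Per the labels, biotin-labelled cRNA was made from the liver RNA of each mouse. The summary algorithm and any scaling are not given in the sources used here, detection calls were not used here, and no column belonged to other samples. Groups came from sample titles. Gene symbols came from the platform annotation (34958 with 1 symbol, 932 with several, 9211 with none).

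Intensities were quantile normalised and converted to log2(value + 16). Probe sets under the 40th percentile of mean intensity (4.04) and array controls were left out. The 4 group means were fitted over 24 arrays in limma 3.58.1 (R 4.3.3) with lmFit and eBayes, two-sided, with Benjamini-Hochberg adjustment over 27002 probe sets. The slope used the 18 injected mice. The code was tested on simulated data. Each gene is represented by its probe set of highest mean. The 2 most alike genes and 3 neighbours on each side were named by rule, as were the 2 called members of each list with the largest change. The 3 p53 targets were picked by name and not by a rule. List counts use 1 probe set per gene. The number of arrays limits the precision.

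The genes, the comparison lists and the tests were chosen with earlier results of these data known. Alternatives were the deposited scale, median scaling, other offsets, no filter, 1 probe set per gene, an intensity trend, the compared groups alone, a replicate block, a Gapdh covariate and omission of arrays.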

Additional observations from a re-analysis of the deposited data

Results flagged for a closer look

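Within single groups, 3 of 128 groups of 6 values examined (the members' and the 3 p53 targets' probe sets in each of 4 groups) held 1 mouse far from the other 5 by Dixon's gap test, which flags about 1 in 20 groups by chance. Arf5 (1422807_at) was at 172 in STZ + 0.1% mouse 4, and the other 5 mice of that group were at 114 to 131. Tspan33 (1425157_x_at) was at 29.8 in STZ mouse 2, with the others at 11.6 to 16.4. Tspan33 (1451609_at) was at 12.9 in STZ + 0.5% mouse 1, with the others at 1.55 to 3.00.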

How the results depend on the processing

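Calls against control depended on the processing more than the differences did. Probe sets called in STZ minus control (690) numbered 231 on the deposited scale, 359 with an offset of 1 and 4 with the Gapdh covariate, and 363 to 800 when 1 array was left out. The low counts came without STZ 3 (418), STZ 5 (458), STZ 6 (372), control 3 (363) and control 4 (454). Called in STZ + 0.1% minus control (1047) were 286, 680 and 2 under the same 3 settings, and 631 to 1188 with 1 array left out, the lowest without STZ + 0.1% mouse 5. Called in STZ + 0.5% minus control (8) were 784 after median scaling, 1 with an offset of 1, 3 without the filter, 15 with 1 probe set per gene, 24 with an intensity trend, 0 with the compared groups alone, 1 with a replicate block, 0 with the Gapdh covariate, 669 without mice 5 and 6 and 0 to 216 with 1 array left out, the highest without mouse 5 (216) or mouse 6 (185).

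Of the 10 genes, 9 were called in STZ minus control, 2 with the Gapdh covariate and 8 to 9 with 1 array left out. For 0.1% the count was 10, 1 with that covariate and 9 to 10. For 0.5% it was 2, against 4 on the deposited scale, 9 after median scaling, 0 with an offset of 1, 4 with an offset of 64, 8 with 1 probe set per gene, 8 with an intensity trend, 0 with the compared groups alone, 1 with a replicate block, 0 with the Gapdh covariate, 10 without mice 5 and 6 and 0 to 10 with 1 array left out. Fewer probe sets are adjusted for with 1 probe set per gene, and the cause of the change in count was not tested for this or any other setting. The share of calls that were higher in STZ minus control was 61.6%, 78.8% on the deposited scale and 44.4% after median scaling.

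The contrast of 0.5% minus 0.1% gave 0 calls, 0 to 2 with 1 array left out, and the slope 0 to 1. In 0.5% minus 0.1% the sign turned for Cplane1 (0.27) and Tcf24 (-0.17) without mice 5 and 6, for Tcf24 without mouse 5 (-0.035, in a range of -0.035 to 0.29 over single omissions), and for Arf5 without STZ + 0.1% mouse 4 (0.026) or STZ + 0.5% mouse 3 (0.01), in a range of -0.11 to 0.026. The slope turned sign without mice 5 and 6 for Sulf2 (0.22), Tcf24 (-0.16), Efna1 (-0.29) and Rnase2a (-0.024), and for Efna1 also on the deposited scale (-0.18), after median scaling (-0.17) and with the Gapdh covariate (-0.23), and it ranged from -0.10 to 0.16 with 1 array left out. Of 2440 differences and slopes of the 10 genes under the alternatives 27 changed sign, none of them in a contrast with control, 6 in 0.1% minus STZ (Aebp2 on the deposited scale, the others without 1 array), 5 in 0.5% minus STZ, 5 in 0.5% minus 0.1% and 11 slopes.

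Mice of the same replicate number were mostly little alike: 4 of 36 correlations of same-numbered deviations were over 0.1 (range -0.12 to 0.28), and 6 of 24 arrays correlated best with their own number. Whether mice of 1 number shared a cage, day or batch was not tested, and weak correlations cannot exclude it. With the replicate block 569 probe sets were called for STZ, 960 for 0.1% and 1 for 0.5%.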
